A study of Homo sapiens with 24 samples.

Results

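The sampling times of this neural induction course fall at the half-day and at the whole-day marks of the first 2 days, and the 2 kinds of time were set against each other gene by gene. The half-day times are 12 and 36 h, with 8 arrays, and the whole-day times are 24 and 48 h, with 8 arrays, so 16 of the 24 arrays of the series enter. Arrays were chosen by the time in their labels and by no measured value. For each gene the contrast is the mean of the 12 h and 36 h group means minus the mean of the 24 h and 48 h group means, and 10215 of 17760 named genes were bright enough to test. All 16 arrays hold total RNA of H1, an established human embryonic stem cell line, labelled as induced with dorsomorphin. Dorsomorphin, also called compound C, inhibits the type I BMP receptors and the energy-sensing kinase AMPK. Per the labels' protocols, confluent cells on Matrigel were moved from the stem cell medium mTeSR to DMEM/F12 with serum replacement, glutamine, nonessential amino acids and β-mercaptoethanol, and that medium was renewed daily. The hour of each renewal relative to RNA isolation is not given in the sources used here, nor is a dorsomorphin dose. No untreated arrays at the later times are among those analysed, so effects of the compound, the medium and time in culture cannot be told apart. Nothing in the labels states that replicate arrays came from separate cultures. All p-values below therefore speak only of array-to-array spread, which could be technical.

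Cells in culture draw down glucose, amino acids and lipids between medium changes, and several transcript programmes are known to follow such supplies. TXNIP and ARRDC4 are classic targets of the glucose-sensing factors MondoA and ChREBP, amino acid shortage acts through ATF4, and sterol shortage acts through SREBP2. The circadian clock is a separate daily programme, built from transcription factors such as CLOCK and BMAL1 and repressors such as the PER and CRY proteins, and it is known to be weak or absent in pluripotent cells.

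The promoters of 4 genes with a lower signal at the half-day times are shown because such programmes are known to act through short sites in them. These genes and the motifs were picked without a stated rule, and windows of other lower genes are not shown. Matches in all 4 therefore do not tell how often lower genes hold such a motif. Each is the RefSeq window of 250 bases before the gene's start on GRCh38.p14, read 5′ to 3′ along the gene's strand, with a matched motif in capitals. RefSeq lists 2 windows each for TXNIP, TEF and PER3, and the first listed is shown. TXNIP lies on the minus strand, with the window at chr1:145996580-145996829, and ARRDC4, TEF and PER3 lie on the plus strand, at chr15:97960453-97960702, chr22:41367205-41367454 and chr1:7784041-7784290.
TXNIP: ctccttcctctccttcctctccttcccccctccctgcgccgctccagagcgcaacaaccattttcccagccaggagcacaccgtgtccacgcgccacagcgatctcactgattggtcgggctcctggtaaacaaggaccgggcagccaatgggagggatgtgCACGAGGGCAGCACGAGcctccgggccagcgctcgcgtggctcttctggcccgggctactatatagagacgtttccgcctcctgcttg
ARRDC4: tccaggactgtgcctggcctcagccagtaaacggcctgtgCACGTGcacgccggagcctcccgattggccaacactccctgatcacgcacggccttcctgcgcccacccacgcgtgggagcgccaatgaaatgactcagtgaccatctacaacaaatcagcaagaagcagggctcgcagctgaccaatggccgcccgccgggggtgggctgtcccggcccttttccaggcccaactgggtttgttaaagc
TEF: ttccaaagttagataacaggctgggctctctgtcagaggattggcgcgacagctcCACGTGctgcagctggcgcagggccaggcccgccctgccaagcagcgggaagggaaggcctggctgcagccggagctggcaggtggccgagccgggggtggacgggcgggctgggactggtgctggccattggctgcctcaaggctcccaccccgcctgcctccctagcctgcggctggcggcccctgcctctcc
PER3: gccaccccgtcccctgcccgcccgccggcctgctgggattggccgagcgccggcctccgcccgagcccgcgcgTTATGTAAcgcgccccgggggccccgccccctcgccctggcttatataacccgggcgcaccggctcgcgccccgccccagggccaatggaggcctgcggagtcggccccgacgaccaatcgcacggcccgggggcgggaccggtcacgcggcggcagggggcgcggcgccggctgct
Capitals in the TXNIP window mark 2 copies of CACGNG with 5 bases between them, a loose form of the paired E-box of glucose-responsive promoters, 71 bases before the start. Capitals in the ARRDC4 and TEF windows mark the E-box CACGTG, and those in the PER3 window mark TTATGNAA, a form of the D-box bound by DBP and TEF. Over both strands of all 35116 promoter windows of this length, the paired motif was found in 0.0456%, the E-box in 6.34% and the D-box in 3.03%. The TXNIP window holds no CACGTG, so only the loose form of the pair marks it. How loose that form is was not set by a stated rule, so its low share is no measure of the match. A match is a description of the letters and not a shown site of binding.

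The contrast was broad and mostly small in size. Past an adjusted p of 0.05 in limma with Benjamini-Hochberg adjustment, 2079 genes differed, 20.4% of those tested. Of these, 1042 were higher at the half-day times (10.2%) and 1037 were lower (10.2%), with a median size of 0.32 on the log2 scale. A difference of at least 2-fold was reached by 7 genes higher and 10 genes lower at the half-day times. The median over all tested genes was 0.00, as the near-equal quantiles of the deposited values impose.

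The mean time is 24 h at the half-day arrays and 36 h at the whole-day arrays, so a steady rise or fall along the course also enters the contrast. A gene was called alternating when the 12 h mean stood on the same side of the 24 h mean as the 36 h mean did of both its neighbours. Among the 2079 genes, 1847 alternated, 88.8%, against 57.1% of all genes tested. They comprised 948 genes higher at both half-day times (9.28% of genes tested) and 899 genes lower (8.8%). The definition uses only the signs of differences between means. The contrast is built from the same means, so choosing genes by a large contrast raises the alternating share by itself. Every step passed the threshold by itself for 110 of the 1847, 55 higher and 55 lower. A third-order contrast of the 4 times, which is 0 for any straight or evenly curved course, passed for 1629 genes (15.9%). It was positive for 816 (7.99%) and negative for 813 (7.96%). It weighs the 24 h and 36 h means more than the 12 h and 48 h means. A positive value therefore need not mean a higher signal at both half-day times. It shared 1239 genes with the plain contrast in the same direction, 59.6% of the plain contrast's genes. The third-order count was 984 without replicate 1 at 36 h and 721 without replicate 4 at 24 h. All 8 half-day arrays lay above or all lay below the 8 whole-day arrays for 177 genes, 1.73% of those tested. Of these, 98 were higher and 79 lower, and each passed. That each also alternated follows from the lack of overlap and is no further result.

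The first and the second day use different arrays and can be set side by side. The difference of 12 h minus 24 h passed for 671 genes (6.57%), and 636 of them, 94.8%, had the same sign at 36 h minus 48 h. The difference of 36 h minus 48 h passed for 538 genes (5.27%), and 509 of them, 94.6%, had the same sign at 12 h minus 24 h. Over all tested genes the share with the same sign was 72.6%. The 2 differences correlated across genes at r = 0.65, a description in which genes are not independent. A steady rise or fall along the course also gives the same sign on both days, so these shares and r do not describe alternation alone. Both days passed for 198 genes, 29.5% of the first day's and 36.8% of the second day's, and TMEM51 alone among them changed sign. No gene passed in limma's test of the difference between the days, with 492 genes at an unadjusted p under 0.05, which is 4.82%. That difference has a larger standard error than the half-day minus whole-day contrast, so the lack of calls does not show that the days are alike. The counts of single days rest on single arrays. For 12 h minus 24 h they were 168 to 389 without any 1 of replicates 1, 2 and 4 at 12 h or 1, 3 and 4 at 24 h, and 1026 and 1070 without replicate 2 at 24 h and replicate 3 at 12 h. For 36 h minus 48 h they were 164 to 268 without any 1 of replicates 1, 2 and 3 at 36 h or 1 and 3 at 48 h.

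**Figure D1:**
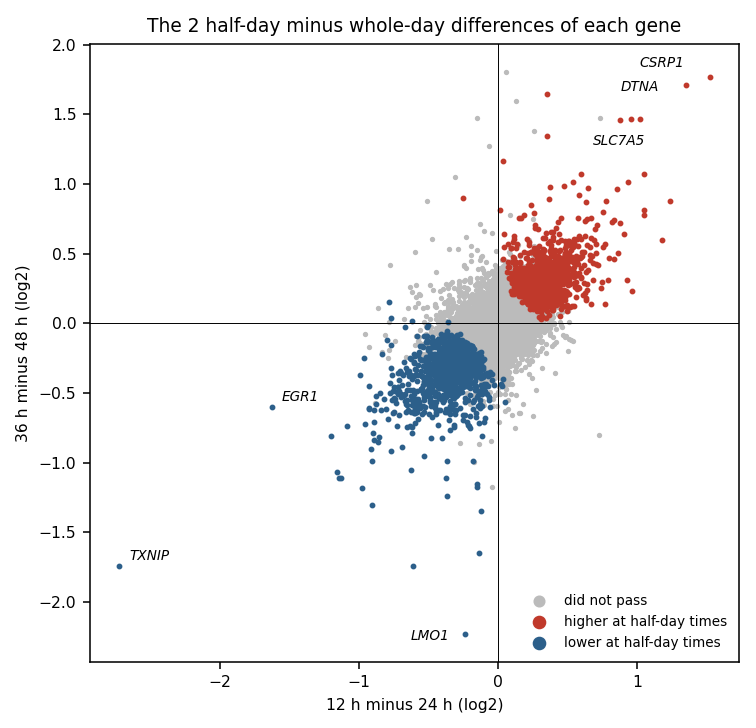
Each point is a gene, with its 12 h minus 24 h difference across and its 36 h minus 48 h difference up, both on the log2 scale. Red genes were higher and blue genes lower at the half-day times past the threshold, grey genes did not pass, and TXNIP is the point farthest left, on the first day, while LMO1 is the point farthest down, on the second day.

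Some arrays stood apart as a whole. The main shared direction of the deviations from the time means carried 27.0% of them. In each of the 6 times the array with the highest weight on it was set apart, so 1 per time follows from the rule. Of these, 2 were half-day arrays (replicate 4 at 12 and at 36 h) and 2 whole-day arrays (replicate 2 at 24 h and replicate 4 at 48 h). The 6 had weights of at least 0.26, and the rest of at most 0.11. Toward the other side the weights reached -0.27 (replicate 4 at 24 h). Without the 6 arrays the contrast gave 1005 genes higher and 1079 lower at the half-day times. With replicates 1 and 2 only, 746 genes passed, and 732 of them, 98.1%, had the same sign in replicates 3 and 4, against 74.4% of all tested genes. With replicates 3 and 4 only, 2 genes passed. Array medians lay between 8.68 and 8.71 at the half-day times and between 8.69 and 8.72 at the whole-day times.

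Genes of glucose sensing held the largest difference. TXNIP, an arrestin that restrains glucose uptake and binds thioredoxin, had log2 signals of 10.50, 8.65, 11.54 and 9.33 at 12 h and of 10.51, 10.53, 9.98 and 10.58 at 36 h. At 24 h it had 12.71, 11.41, 12.88 and 13.90, and at 48 h 12.16, 12.48, 12.11 and 11.84. Each half-day array was below each whole-day array except that replicate 3 at 12 h exceeded replicate 2 at 24 h. TXNIP was 4.70-fold lower at the half-day times, by a log2 change of -2.23 ± 0.35 (SE, limma adjusted p = 0.00016). ARRDC4, an arrestin relative of TXNIP, had a half-day range of 6.88 to 7.50 with a median of 6.96, against a whole-day range of 7.37 to 9.25 with a median of 8.02. Only 2 of 8 half-day arrays exceeded the background of 7.10 that olfactory receptor probes set, against 8 of 8 whole-day arrays, so only a bound can be given. With half-day arrays under background held at it, ARRDC4 was at least 1.85-fold lower than at the whole-day times (adjusted p = 0.00038 in the fit of the measured values). Of the 8 tested genes of this list, 3 were lower and 1 was higher, with a median of -0.01. The others that passed were ARRDC3, a further arrestin of the family (-0.28), and PFKFB3, a regulator of glycolysis (0.29). ARRDC3 and PFKFB3 each lost the call in 11 of 16 fits that leave out 1 array and without the 6 arrays (adjusted p = 0.13 and 0.071). None of 19 glycolysis genes and none of 25 oxidative phosphorylation genes passed in limma, with 1 and 4 of them at an unadjusted p under 0.05 and medians of 0.00 and 0.00.

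**Figure D2:**
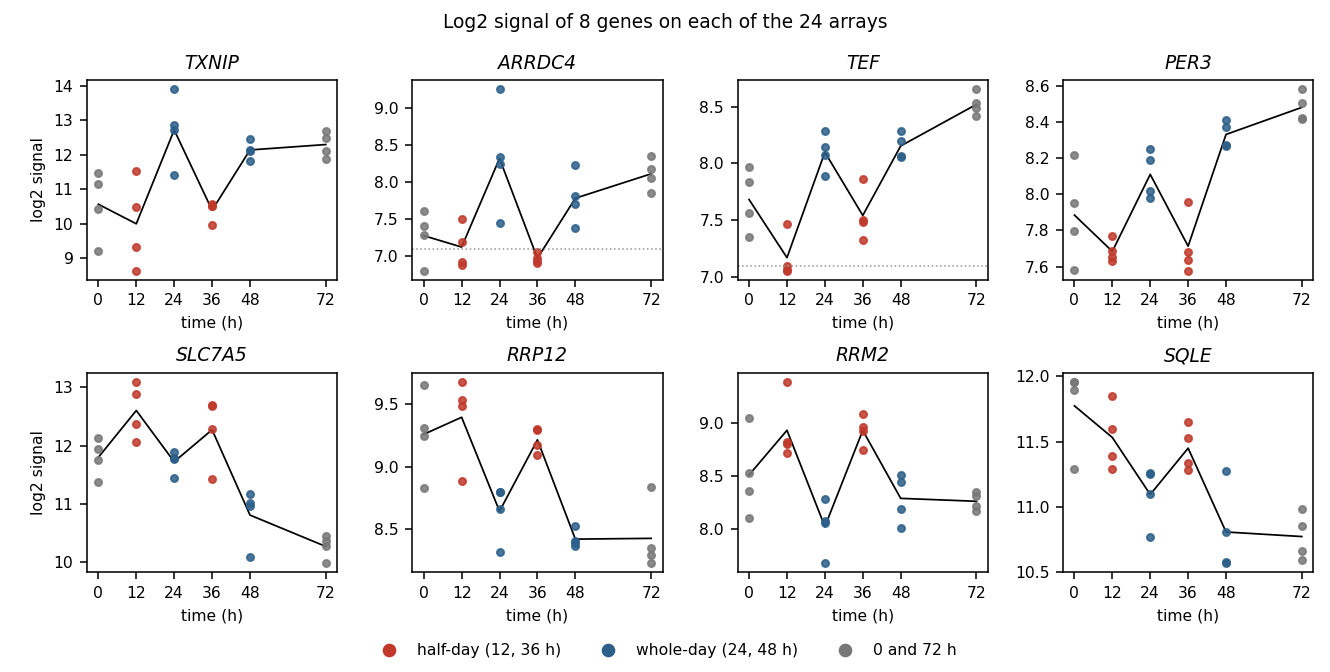
Log2 signal of 8 genes on each of the 24 arrays by hours since the start, with red points for half-day times, blue points for whole-day times, grey points for 0 and 72 h, a line through the means and, where in range, a dotted line at the background of 7.10. TXNIP, ARRDC4, TEF and PER3 were lower at 12 and 36 h than at 24 and 48 h, and SLC7A5, RRP12, RRM2 and SQLE were higher.

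Of 16 tested genes of the circadian clock list, 6 were lower at the half-day times (10.2% of all genes were) and 0 higher, with a median of -0.10. All 6 alternated, as did 88.8% of all genes past the threshold. TEF, a PAR bZIP factor that follows the clock, had 7.06, 7.06, 7.47 and 7.09 at 12 h and 7.48, 7.50, 7.32 and 7.86 at 36 h. Its 24 h signals were 8.07, 8.14, 7.89 and 8.28 and its 48 h signals were 8.20, 8.07, 8.06 and 8.29. All 8 half-day arrays lay below all 8 whole-day arrays, 3 of them under background, at a change of -0.77 ± 0.09 (adjusted p = 1.6e-05). PER3, a period protein of the clock's repressor arm, spanned 7.58 to 7.96 at the half-day times with a median of 7.67, against 7.98 to 8.41 at the whole-day times with a median of 8.26. DBP, the D-box factor most tightly tied to clock output, spanned 7.70 to 8.19 at the half-day times with a median of 7.86, against 8.24 to 8.56 at the whole-day times with a median of 8.41. Neither PER3 (-0.52 ± 0.08) nor DBP (-0.46 ± 0.08) overlapped between the groups. PER2, another repressor, differed by -0.50 ± 0.09 with overlap, CRY2 by -0.41 ± 0.07 and the nuclear receptor gene NR1D2 by -0.34 ± 0.07. The other 10 did not pass. Among them CLOCK stood at -0.03 ± 0.08 (adjusted p = 0.83), CRY1 at -0.11 ± 0.10 (0.46) and NR1D1 at 0.02 ± 0.08 (0.90), and PER1 was above background on 0 of 24 arrays and was not tested. Counts for the clock list were the same without the 6 arrays that stand apart, 6 lower and 0 higher.

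Of 19 tested ribosome biogenesis genes, 11 were higher and 0 lower, all 11 alternating, with a median of 0.27, against 10.2% higher among all genes. RRP12, which exports and matures ribosomal precursors, had 9.53, 9.68, 8.89 and 9.49 at 12 h and 9.17, 9.30, 9.30 and 9.09 at 36 h. Its signals at 24 h were 8.80, 8.80, 8.66 and 8.31 and those at 48 h were 8.52, 8.36, 8.38 and 8.40. The groups did not overlap, and the change was 0.78 ± 0.11 (adjusted p = 0.00011). NOLC1, a nucleolar chaperone, differed by 0.56 ± 0.10, and the box C/D factor NOP56 by 0.40 ± 0.06. The list's median was 0.34 with replicates 1 and 2 only and 0.26 with replicates 3 and 4 only. By contrast, of 29 cytosolic ribosomal protein genes 1 was higher (RPL13, 0.59 ± 0.08) and 1 lower (RPL37, -0.37 ± 0.12), with a median of -0.02. RPL37 no longer passed when any 1 of 4 arrays was left out (36 h replicate 1, 24 h replicates 3 and 4, 12 h replicate 4), with adjusted p up to 0.060.

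Some amino acid response and aminoacyl tRNA synthetase genes were higher at the half-day times, and most did not pass. SLC7A5, the light chain of the large neutral amino acid transporter, had 12.88, 13.09, 12.06 and 12.38 at 12 h and 12.29, 12.68, 12.70 and 11.43 at 36 h. It had 11.77, 11.79, 11.89 and 11.45 at 24 h and 11.02, 11.17, 10.97 and 10.09 at 48 h. Replicate 4 at 36 h alone fell within the whole-day range, and the change was 1.17 ± 0.18 (2.25-fold; adjusted p = 0.00014). Its heavy chain SLC3A2 differed by 0.64 ± 0.12, the serine synthesis enzyme PSAT1 by 0.64 ± 0.11 and the stress factor ATF5 by 0.93 ± 0.15. Of 21 tested amino acid response and ATF4 target genes, 5 were higher (10.2% among all genes) and 0 lower, 4 of them alternating. The list's median was 0.14. ASNS, the asparagine synthetase and a defining ATF4 target, stood at 0.37 ± 0.14 (adjusted p = 0.064), or at adjusted p = 0.0029 without the 6 arrays. Of 18 aminoacyl tRNA synthetases, which charge tRNAs, 7 were higher and 0 lower, all 7 alternating, with a median of 0.17. YARS1 had a half-day range of 11.74 to 12.31 with a median of 11.89, against 11.16 to 11.62 with a median of 11.48 at the whole-day times, and did not overlap (0.46 ± 0.07). TFRC, the transferrin receptor that brings in iron, differed by 0.91 ± 0.18 (1.88-fold).

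Of 18 tested sterol synthesis genes, 8 were higher (10.2% among all genes) and 0 lower, all 8 alternating, with a median of 0.24. Without the 6 arrays, 9 were higher and 2 lower. SQLE, the squalene epoxidase, had 11.39, 11.60, 11.29 and 11.85 at 12 h and 11.33, 11.28, 11.53 and 11.65 at 36 h. It had 10.77, 11.25, 11.26 and 11.10 at 24 h and 10.58, 10.57, 10.81 and 11.28 at 48 h. The groups met without crossing, since the lowest half-day and highest whole-day signals both round to 11.28, and the change was 0.54 ± 0.12 (adjusted p = 0.0023). HMGCS1, which commits acetyl units to the mevalonate pathway, differed by 0.71 ± 0.15 and DHCR7, the last enzyme before cholesterol, by 0.41 ± 0.11. Of 10 fatty acid synthesis genes, 3 were higher and 0 lower, only 1 of them alternating, with a median of 0.20.

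Some DNA replication genes were higher at the half-day times, and mitotic genes were called equally in both directions. RRM2, the small subunit of ribonucleotide reductase, had 8.82, 9.38, 8.80 and 8.71 at 12 h and 8.96, 8.92, 9.09 and 8.74 at 36 h. It had 8.08, 8.28, 8.05 and 7.68 at 24 h and 8.44, 8.01, 8.19 and 8.51 at 48 h. The groups did not overlap, at a change of 0.77 ± 0.12 (1.71-fold; adjusted p = 0.00014). Of 27 tested S phase and replication genes, 7 were higher (10.2% among all genes) and 1 lower, all alternating, with a median of 0.15. Without the 6 arrays 11 were higher and 1 lower. MCM7, of the replicative helicase, differed by 0.35 ± 0.08 and PCNA, the polymerase clamp, by 0.26 ± 0.06, while CCNE1, the cyclin that opens S phase, was the gene that was lower (-0.25 ± 0.06). Of 29 G2 and M phase genes, 3 were higher, among them KIF23 and BIRC5 of late mitosis (0.40 ± 0.09 and 0.36 ± 0.10), and 3 were lower, among them PTTG1, the securin (-0.32 ± 0.09). Both shares are near the 10.2% of all genes in each direction. Without the 6 arrays the counts were 2 higher and 5 lower. The bulk signal cannot tell fewer cells in a phase from less RNA per cell.

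**Figure D3:**
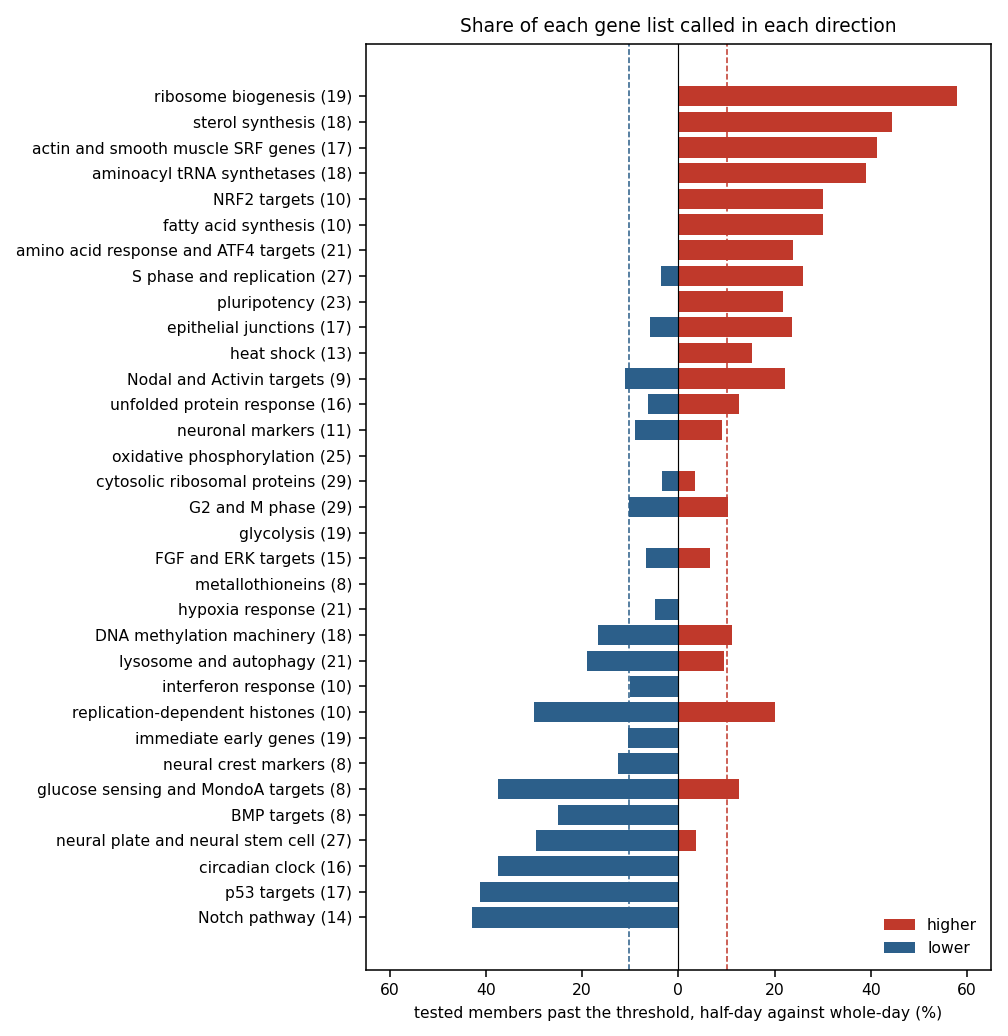
Share of the tested members past the threshold for each gene list with at least 8 tested members, with red bars to the right for members higher and blue bars to the left for members lower at the half-day times, ordered by the share higher minus the share lower and with the number tested in brackets. Dashed lines mark the 10.2% of all tested genes called in each direction, which ribosome biogenesis, with 11 of 19 higher, exceeds most on the right and the Notch pathway, with 6 of 14 lower, most on the left.

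The largest upward differences were those of CSRP1 and DTNA, and contractile genes were among the others. CSRP1, a LIM protein of smooth muscle and actin bundles, had 10.75, 11.32, 9.60 and 10.77 at 12 h and 9.77, 10.13, 10.67 and 9.35 at 36 h. It had 9.18, 8.50, 9.93 and 8.72 at 24 h and 8.07, 8.44, 8.60 and 7.72 at 48 h. The groups overlapped through replicate 3 at 24 h, which exceeded the lowest half-day arrays, and the change was 1.65 ± 0.21 (3.13-fold; adjusted p = 5.1e-05). DTNA, a dystrobrevin of the dystrophin complex, differed by 1.53 ± 0.19 (2.90-fold), the cardiac actin ACTC1 by 1.21 ± 0.20 (2.31-fold) and calponin, CNN1, by 1.06 ± 0.12 (2.09-fold). Of 17 tested actin and smooth muscle SRF genes, 7 were higher (10.2% among all genes) and 0 lower, 4 of them alternating. The list's median was 0.13. ACTA1, the skeletal actin, passed (0.63 ± 0.12) without alternating. RBM14, a coactivator and paraspeckle protein, spanned 11.87 to 12.25 at the half-day times with a median of 12.04, against 10.44 to 11.46 with a median of 11.08 at the whole-day times. It did not overlap and differed by 1.06 ± 0.14 (2.09-fold). SOCS2, a feedback inhibitor of cytokine signalling, differed by 0.97 ± 0.13, and ANXA1, a phospholipid-binding annexin, by 1.24 ± 0.32.

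**Figure D4:**
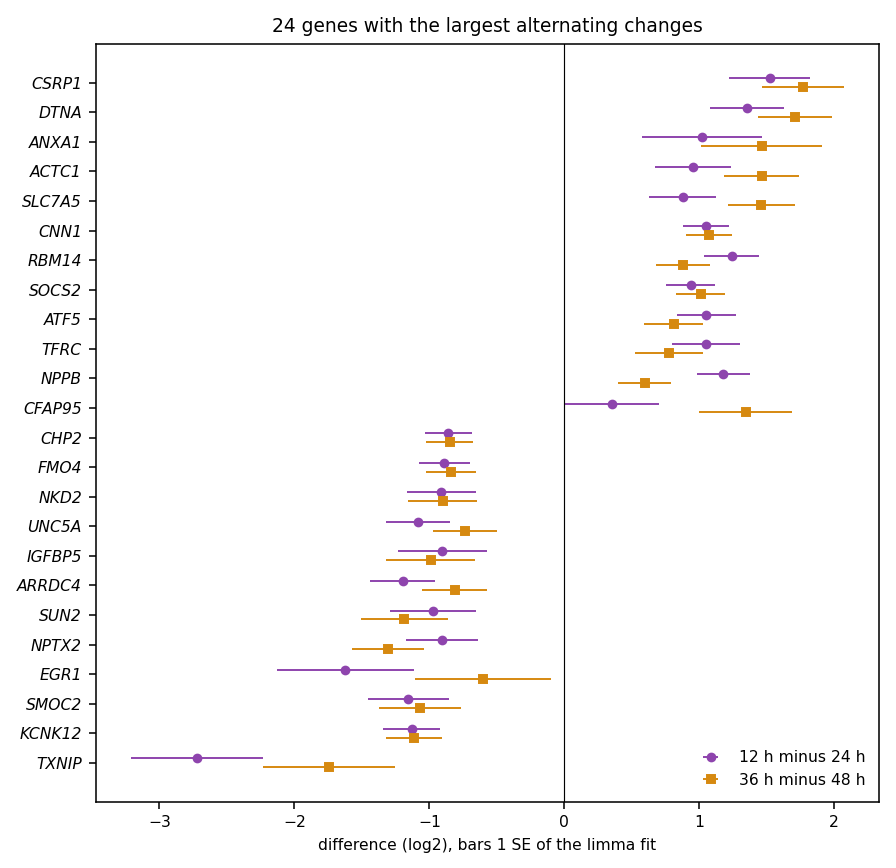
The 12 alternating genes with the largest positive and the 12 with the largest negative contrast, each with its 12 h minus 24 h difference (purple circles) and its 36 h minus 48 h difference (orange squares) on the log2 scale, bars showing 1 SE of the limma fit. CSRP1 to CFAP95 lie right of 0 on both days and CHP2 to TXNIP lie left of 0.

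Among the other genes lower at the half-day times were genes of differing roles. KCNK12, of the two-pore potassium channel family, had a half-day range of 9.35 to 11.15 with a median of 10.13, against 10.23 to 11.96 with a median of 11.29 at the whole-day times, and differed by -1.12 ± 0.15 (adjusted p = 5.1e-05). Its groups overlapped, with means of 9.60, 10.73, 10.59 and 11.70 at 12, 24, 36 and 48 h. SUN2, which links the nuclear envelope to the cytoskeleton, differed by -1.08 ± 0.23, and NPTX2, a secreted pentraxin, by -1.10 ± 0.19. FMO4, a flavin monooxygenase, spanned 7.24 to 7.51 at the half-day times, against 7.57 to 8.73 at the whole-day times. CHP2, a calcineurin B homologue, spanned 7.10 to 7.56 at the half-day times, against 7.65 to 8.55 at the whole-day times. Both were free of overlap, at changes of -0.86 ± 0.13 and -0.86 ± 0.12. EGR1, an immediate early factor, stood at -1.11 ± 0.36 (adjusted p = 0.029), and it no longer passed when any 1 of 9 arrays was left out (12 h replicates 1 and 2, 24 h replicates 1, 3 and 4, 36 h replicate 4, 48 h replicates 1, 2 and 3), with adjusted p up to 0.065. Of 19 tested immediate early genes, 2 were lower and 0 higher, about the 10.2% of all genes, with a median of -0.01, and FOS, near background, stood at -0.38 ± 0.15 (adjusted p = 0.080).

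Of 17 tested p53 targets, 7 were lower (10.2% among all genes) and 0 higher, all 7 alternating, with a median of -0.19, and without the 6 arrays 5 were lower and 2 higher. TP53INP1, a p53-induced protein of autophagy and cell death, spanned 7.48 to 8.38 with a median of 7.89 at the half-day times, against 8.25 to 8.66 with a median of 8.44 at the whole-day times. It overlapped slightly and differed by -0.53 ± 0.10 (adjusted p = 0.00089), GADD45A, a growth arrest gene, by -0.50 ± 0.11 and ZMAT3, an RNA-binding p53 target, by -0.49 ± 0.11. Of 10 NRF2 targets of the oxidant response, 3 were higher and 0 lower, with NQO1, a quinone reductase, at 0.83 ± 0.15 (1.78-fold). Of 13 heat shock genes 2 were higher, HSPA8 (0.40 ± 0.09) and HSP90AA1 (0.23 ± 0.06), and 0 lower, near the 10.2% higher among all genes. Of 16 unfolded protein response genes 2 were higher (DNAJB11 and CRELD2) and 1 lower (DNAJB9), and CRELD2 lost the call in 10 of 16 fits that leave out 1 array. The shares of that list are near those of all genes. The lysosome and autophagy list had 2 higher and 4 lower of 21. In it SQSTM1, the autophagy receptor p62, was higher (0.46 ± 0.13) and WIPI1, of the forming autophagosome, was lower (-0.33 ± 0.07), both without overlap. None of 8 metallothioneins passed in limma, with 3 at an unadjusted p under 0.05 and a median of 0.63. MT2A stood at 0.66 ± 0.35 (adjusted p = 0.19), with -0.15 at 12 h minus 24 h and 1.47 at 36 h minus 48 h.

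Signalling and lineage lists held genes that followed the course as well as genes that alternated. Their counts are to be set beside the 10.2% of all tested genes called in each direction. Of 14 tested Notch pathway genes, 6 were lower and 0 higher, 5 of them alternating, with a median of -0.27, and without the 6 arrays 8 were lower and 1 higher. MFNG, a glycosyltransferase that modifies Notch, spanned 7.15 to 7.71 with a median of 7.50 at the half-day times, against 7.54 to 8.60 with a median of 8.19 at the whole-day times, and differed by -0.62 ± 0.11. The receptor NOTCH1 differed by -0.54 ± 0.15 and the ligand JAG2 by -0.45 ± 0.12. Of 27 neural genes, those of the neural plate and of neural stem cells, 8 were lower and 1 higher, with a median of -0.27, but only 1 of the lower genes and the higher one alternated. SOX21, a SoxB factor of neural progenitors, had means of 10.99, 11.76, 12.44 and 12.76 at 12, 24, 36 and 48 h, a higher mean at each later time, which enters the contrast as -0.54 ± 0.15. Its third-order contrast was 0.07 (limma adjusted p = 0.81). Of 23 pluripotency genes, 5 were higher and 0 lower, 3 of them alternating, with a median of 0.15. POU5F1, the core factor of the stem cell state, stood at 0.16 ± 0.08 (adjusted p = 0.15) and was bright on all 16 arrays, NANOG at 0.30 ± 0.12 (0.064), SOX2 at -0.26 ± 0.12 (0.13) and PAX6 at -0.13 ± 0.19 (0.66), the last above background on 2 half-day and 3 whole-day arrays. Of 8 BMP targets, 2 were lower and 0 higher, and without the 6 arrays 4 were lower. SMAD6, the inhibitory SMAD, differed by -0.53 ± 0.09, while the direct BMP target ID3 stood at 0.01 ± 0.16 (adjusted p = 0.99). ID1 was above background on 2 of 24 arrays and was not tested. FGF and ERK targets had 1 gene higher and 1 lower of 15, Nodal and Activin targets 2 and 1 of 9 and Wnt targets 0 and 1 of 7. The 2 higher Nodal genes were GDF3, near background with signals of 6.35 to 7.16 on the 16 arrays, and PMEPA1. The lower one, SHISA2, had a higher mean at each later time. PMEPA1 lost the call in 7 of 16 fits that leave out 1 array, and the Wnt gene LEF1 in 6.

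In all, 232 of the genes past the threshold did not alternate, and 130 of them had means that rose and 93 means that fell at every step of the 4 times. LMO1, a LIM-domain cofactor, had means of 6.68, 6.91, 7.18 and 9.41 at 12, 24, 36 and 48 h, and was above background on 2 half-day and 4 whole-day arrays. SHISA2, which retains Wnt and FGF receptors inside the cell, had means of 9.40, 10.01, 11.21 and 12.96. NTS, the neurotensin precursor, went the other way with means of 10.01, 9.16, 8.25 and 7.29. The contrasts of SHISA2 and NTS were -1.18 ± 0.23 and 0.91 ± 0.19, and their third-order contrasts were 0.01 and 0.01 (limma adjusted p = 0.98 and 0.99). The 24 h signals of LMO1 were 6.83, 6.90, 6.98 and 6.94, all under the background of 7.10, so no size is given for its contrast. Its third-order contrast did not pass (limma adjusted p = 0.16). PRICKLE1, of planar cell polarity, fell late, with means of 11.15, 10.80, 10.78 and 9.14, and contributed 1.00 ± 0.19.

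The DNA methylation machinery, the concern of the series' title, had 2 genes higher (TDG and GADD45G) and 3 lower of 18 tested, near the background of 10.2% in each direction, and GADD45G lost the call in 9 of 16 fits that leave out 1 array. TDG, the glycosylase that removes oxidised methylcytosine, had 10.34, 10.44, 10.09 and 10.42 at 12 h and 10.29, 10.03, 10.10 and 10.09 at 36 h. It had 9.89, 9.72, 9.62 and 9.65 at 24 h and 9.79, 9.53, 9.46 and 9.79 at 48 h. The groups did not overlap, at a change of 0.54 ± 0.10 (1.46-fold; adjusted p = 0.00092), and its value is repeated over several probes in the deposited table. MBD2, which reads methylated DNA, differed by -0.33 ± 0.07. DNMT3B, a de novo methyltransferase, stood at 0.15 ± 0.14 (adjusted p = 0.46) and the dioxygenase TET1 at -0.23 ± 0.08 (0.052).

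Markers of other cell types were mostly dim. Of 12 endoderm markers 4 were tested and 1, AFP, was higher (0.83 ± 0.18), while FOXA2, GATA4, GATA6 and SOX17 were above background on 0 arrays, and the summed linear signal of the list ran from 684 to 1023 on the half-day arrays and from 577 to 821 on the whole-day arrays. Of 14 fibroblast and mesenchymal markers 7 were tested and 1, PDGFRB, was lower (-0.58 ± 0.13), with COL3A1, DCN, LUM and POSTN above background on 0 arrays and sums of 6673 to 7402 on half-day and 7369 to 8282 on whole-day arrays. Of 14 neural crest markers 8 were tested and 1, SOX10, was lower (-0.35 ± 0.11), a call lost in 6 of 16 fits that leave out 1 array, with sums of 2237 to 2635 on half-day and 2398 to 2989 on whole-day arrays. Of 16 mesoderm markers measured, 2 were tested. Of these, FOXC2 was above background on 0 of 8 half-day and 4 of 8 whole-day arrays, so no change is given for it. The list had sums of 206 to 290 on half-day and 207 to 287 on whole-day arrays. None of 5 tested trophoblast and amnion markers passed in limma, with 3 at an unadjusted p under 0.05, 2 lower without the 6 arrays and sums of 1129 to 3324 on half-day and 1327 to 2580 on whole-day arrays, and GATA3, CGA and CDX2 were above background on 0 arrays. Of 11 neuronal markers, SCG3 was higher, a call lost in 10 of 16 fits that leave out 1 array, and MAP2 was lower (-0.63 ± 0.10), with sums of 5773 to 7541 on half-day and 6411 to 7602 on whole-day arrays. The part of such cells in the differences above was not tested.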

How the data were processed

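The authors deposited log2 values of 24 Illumina HumanHT-12 v4 arrays, 37900 rows between 5.57 and 15.51, already brought to nearly equal quantiles, as the values themselves show. The sources used here do not give the scanner software, background correction or normalization method. A second deposited table of scanner intensity and detection p-values was not used, because its 48 columns match no sample label. Rows with identical values on every array (10159 rows in 4746 sets) were counted once, which left 32487 measurements. Gene names came from the platform annotation. Background was 7.10, the 99th percentile of 387 olfactory receptor measurements, and genes above it on at least 4 arrays were tested, each by its measurement with the highest mean: 10215 genes, 1936 of them with a repeated value. Each array had 9147 to 9411 genes above background, and same-time arrays had a median pairwise r of 0.991. The number of arrays limits the precision.

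In R 4.3.3, limma 3.58.1 (lmFit, eBayes) fitted a mean for each of the 6 times to the 24 arrays (18 residual degrees of freedom), and two-sided p-values were adjusted by the Benjamini-Hochberg method over all tested genes, with a threshold of 0.05. Standard errors are those of the fit. On simulated data for this contrast with 10215 genes, 94 of 100 changes of 0.5 and 100 of 100 changes of 1 on the log2 scale were recovered, with 9 false calls. The simulated noise was independent between genes and between arrays, without trends over time. These counts therefore do not cover arrays that deviate together, as some did here. Deviations of same-numbered arrays from their time means correlated at 0.14 to 0.44 for number 1 but at -0.35 to 0.58 over the others, so the rule that every pair correlate above 0.1 was not met and the numbers were not taken as pairs. The arrays, gene lists and rules were chosen with earlier results of these data known, and list counts and medians are descriptions without a test. Named genes were the 12 largest alternating changes and the 6 largest others in each direction, the 3 largest of the third-order contrast in each direction, the 4 largest of the difference of the 2 days had any passed, up to 4 members past the threshold of each list, and a short list of stem cell, signalling and clock genes. Further members, chosen after their values were seen, are named in the lists of clock, ribosome, replication and other genes. Alternatives were other fits, filters, scalings and array sets, each array left out in turn, and, added after seeing the data, the fit without the 6 arrays that stand apart.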

Additional observations from a re-analysis of the deposited data

Results flagged for a closer look

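In groups of 4 arrays, 1 array was called far from the others when the ratio of its gap to the nearest of them over the group's range exceeded Dixon's 95% critical value. Of 532 groups of named genes by time, 23 met this, and chance alone gives about 1 in 20. At 12 h these were TEF on replicate 3 (7.47), RRM2 on replicate 2 (9.38) and TET1 on replicate 3 (9.35). At 36 h they were TXNIP on replicate 3 (9.98), PER2 on replicate 2 (7.84), CRELD2 on replicate 4 (10.47) and POU5F1 on replicate 2 (11.88).

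At 24 h replicate 2 was far from the others for EGR1 (8.49), SLC3A2 (8.61), CTSL (10.83) and FOS (6.38). Replicate 1 was so for PMEPA1 (7.97) and CCNB2 (12.22), and replicate 4 for HSPA8 (13.26) and SOX21 (11.17). At 48 h replicate 4 was so for ATF5 (8.39), EGR1 (7.80), IFIT1 (7.78), TAGLN (11.91) and ASNS (10.51), replicate 1 for CRELD2 (9.75) and MBD2 (8.01), and replicate 2 for GADD45G (8.40). Replicate 2 at 24 h and replicate 4 at 36 and at 48 h are among the 6 arrays that stand apart as a whole.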

How the results depend on the processing

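The numbers of genes higher and lower at the half-day times stayed within 1.5 times of 1042 and 1037 under every fit tried except those with fewer replicates. With replicates 1 and 2 only there were 326 higher and 420 lower, 312 and 378 of them alternating, 114 for 12 h minus 24 h, 23 for 36 h minus 48 h and 128 in the third-order contrast. With replicates 3 and 4 only there were 0 higher and 2 lower, 0 and 2 alternating, and 0, 0 and 0 in the other 3. Array weights gave 1211 genes for 12 h minus 24 h, 1402 for 36 h minus 48 h and 1 for the difference of the days, and the last was 3 without the 6 arrays that stand apart. Leaving out 1 array gave 793 to 1190 higher, 828 to 1216 lower, 718 to 1091 and 704 to 1062 alternating, 168 to 1070 for 12 h minus 24 h, 164 to 620 for 36 h minus 48 h, 0 to 2 for the difference of the days and 721 to 2060 in the third-order contrast. With the replicate number as a block there were 1213 higher and 1196 lower, 1100 and 1027 alternating, and 896, 732, 0 and 1935 in the other tests, and 14 of 24 arrays correlated best with an array of their own number at another time, a hint from the data, although the numbers were not taken as pairs. Of 122 named genes past the threshold, 97 kept it in all 16 fits that leave out 1 array and 118 without the 6 arrays. With replicates 1 and 2 only 74 kept it, and with replicates 3 and 4 only 0 did. All 122 kept their sign in both sets, but they were chosen by a fit that holds both, which favours kept signs. Among the genes that did not pass, 3 changed sign under some fit. ID3 stood at -0.043 with replicates 1 and 2 only and between -0.11 and 0.15 without 1 array, PAX6 at 0.074 with replicates 3 and 4 only, and DUSP6 between -0.031 and 0.31 without 1 array. Some named genes had a second measurement with a mean above background, not used in the fit. Its change was smaller for BIRC5 (0.19 against 0.36), JAG2 (-0.19 against -0.45) and HSP90AA1 (0.13 against 0.23). For others it was larger, as for HSPA8 (0.51 against 0.40) and SQLE (0.60 against 0.54). Genes near the background of 7.10, such as ARRDC4, have compressed changes, and 7545 dim genes were not tested.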

Other observations

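Gene families not described above were grouped by the start of their symbols, over 62 families with at least 15 tested members, and those named here were picked after their values were seen, so the counts are descriptions. Proteins of the mitochondrial ribosome were higher at the half-day times in 11 of 29 MRPS and 11 of 46 MRPL genes, with 1 MRPS gene (MRPS25) and 0 MRPL genes lower, against 10.2% of all tested genes in each direction. Of 29 DDX helicases, which remodel RNA, 10 were higher, DDX39A by 0.53 ± 0.11 and DDX54 by 0.40 ± 0.09, and DDX24 alone was lower (-0.23 ± 0.07). Of 28 POLR subunit genes, 8 were higher, POLR3G of stem cells among them (0.44 ± 0.12), and 1 was lower, its paralogue POLR3GL (-0.57 ± 0.10). Of 182 solute carriers, 34 were higher and 17 lower. The higher ones included the neutral amino acid transporters SLC1A5 (0.41 ± 0.10) and SLC38A1 (0.67 ± 0.16).

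Among the families with a larger share lower were the following 3. Of 299 ZNF genes, 11 were higher and 24 lower, both under the share of all genes. Of 19 long noncoding LINC genes 0 were higher and 4 lower, and of 15 IFT genes of ciliary transport 0 were higher and 3 lower.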
